A study of Mus musculus with 10 samples.

Results

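Ion channels are membrane proteins that open a pore for potassium, calcium, sodium or chloride, and many of them carry extra subunits that form no pore and set how the channel opens or where it sits. Voltage-gated channels answer to the electrical state of the membrane, ligand-gated channels to a transmitter such as glutamate, GABA or glycine, and TRP channels to lipids, heat, stretch or other signals. Outside nerve and muscle, potassium channels hold the resting potential, calcium entry feeds signalling, and CLC proteins move chloride across the membranes of endosomes and lysosomes. In the skin, such genes are best known from sensory nerve endings, from vascular muscle and pericytes, from keratinocytes and from pigment cells.

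Ion channel genes were taken as all genes whose symbol in the platform annotation began with Kcn, Cacn, Scn and a digit, Gabr, Gria, Grik or Grin, Glra or Glrb, Clcn, or Trpc, Trpm or Trpv and a digit. The rule used no measured value. It gave 147 genes of the 12393 named on the array, read by 210 probe-sets, and 49 of the genes had more than 1 probe-set. A further 2 probe-sets that list several genes were left out. The symbols also take in genes that form no pore, among them Trpc4ap, which encodes a partner of TRP channels, Grina, named for a glutamate-binding protein, and the Kcnab, Kcne and Kcnip families of auxiliary subunits.

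Expression was measured on 10 Affymetrix MOE430A arrays, 2 for each of 5 populations sorted from the dermis of backskin of mice at postnatal day 4 (P4). All mice carried a pair of transgenes, Lef1-RFP, in which a fragment of the human Lef1 promoter drives a red fluorescent protein, and K14-H2BGFP, in which the keratin 14 promoter drives a green histone, so there was no population without reporters and the gates followed the promoter fragments rather than the endogenous genes. Backskins were pooled for a preparation, and strain and sex are not given in the sources used here. Mx (matrix) cells were GFP-low and RFP-negative, ORS (outer root sheath) cells GFP-high and RFP-negative, DP (dermal papilla) cells RFP-high and GFP-negative, and DF (dermal fraction) cells negative for both reporters. DP and DF were depleted of cells bearing CD34, CD45 or CD117, and Mc (melanocytes) were RFP-high, GFP-negative and CD117-positive. Values are signals on a linear scale from the MAS 5.0 algorithm, and folds are on the scale of log2(signal + 50), which understates the change of a gene with a low signal.

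Replicate arrays correlated at Pearson's r of 0.971 to 0.982 across all probe-sets, which are not independent replicates, and the median signal of an array ran from 49.9 to 90.9. The labels were checked against markers of each population, of which 6 of 6 rose in Mx, 6 of 6 in ORS, 4 of 6 in DF, 7 of 7 in DP and 9 of 9 in Mc. Of the same lists, 4 of the 6 DF markers and 6 of the 9 Mc markers also rose in DP, so the DF list does not tell DF from DP. Markers of other cells were also read, as RNA in a sorted population and not as a count of cells. In these pooled RNAs, fewer cells of a type and less RNA per cell cannot be told apart. DF held the highest summed signal of 8 smooth muscle and pericyte markers (25175 to 28866, against 4396 to 7038 in DP and no more than 4805 elsewhere), of 7 endothelial markers (2773 to 3823, against at most 275.5 elsewhere) and of 5 Schwann cell markers (2493 to 3071, against at most 1931). The 9 Mc markers summed to 15823 to 25595 in DP and 4226 to 13326 in DF, beside 34079 to 36391 in Mc and at most 961.4 in Mx and ORS. Of 8 neuronal markers, 1 reached 200 in any population.

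Most ion channel genes gave a low signal in all 5 populations. Of the 147 genes, 61 reached a signal of 50 on both arrays of some population, 27 reached 100, 12 reached 200 and 7 reached 400. The 12 genes at 200 or more were 8.16% of the members, against 42.6% of all genes named on the array. They were Trpm1, Glrb, Clcn5, Clcn4, Grina, Trpv2, Kcnj8, Kcne4, Kcna1, Cacna1g, Trpc4ap and Trpm7. By population, 9 members reached 200 in DF (31.5% of all genes did), 7 in DP (31.7%), 7 in Mc (27.2%), 3 in Mx (25.1%) and 3 in ORS (29.8%). The same 3 genes, Clcn5, Trpc4ap and Trpm7, made up the Mx and the ORS counts. The median signal of the 147 genes was 36.5 in DP, 31.1 in DF, 20.9 in Mc, 16.6 in ORS and 16.5 in Mx, where the median of all genes lay between 73.5 and 112.2. At the bound itself, Kcna1 was the lowest gene inside, with 221.6 in the lower of its DF arrays, and just outside lay Clcn3 with 187.5 (in ORS, on a probe-set other than the one that stands for the gene), Kcnmb4 with 187.2, Kcnk1 with 177.6, Clcn7 with 169.5 and Cacna2d1 with 161.

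**Figure D1:**
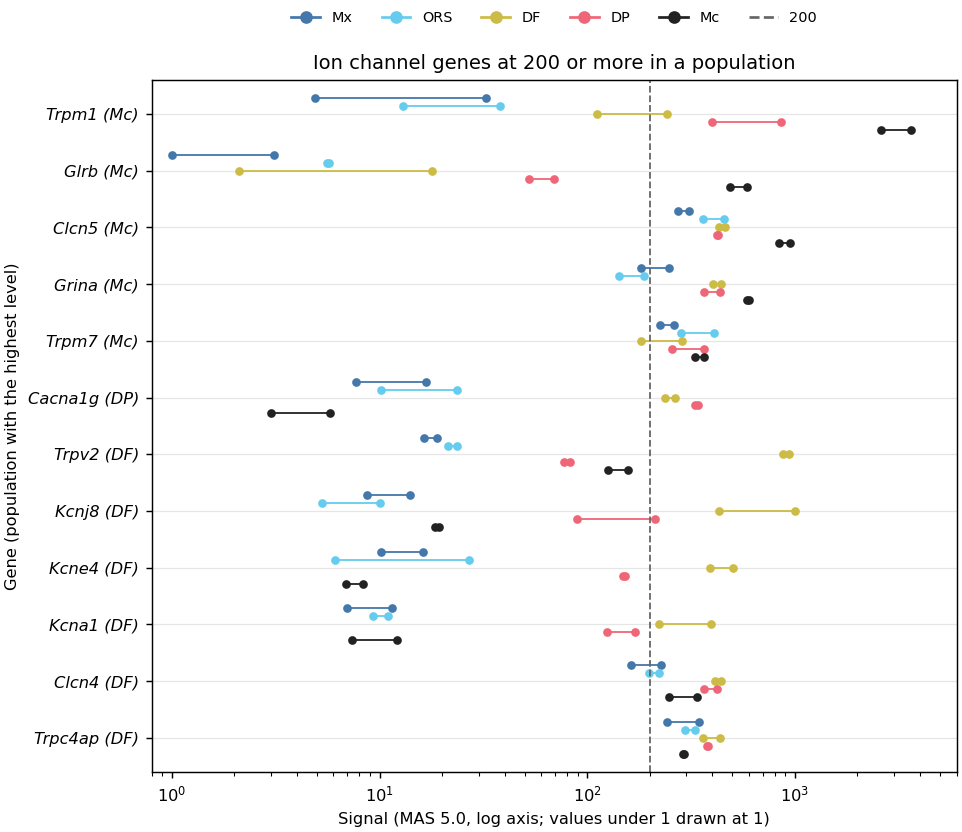
Signal on each of the 10 arrays (log axis, 2 linked points for each population) of the 12 ion channel genes that reached 200, the dashed line, in both arrays of a population. Trpm1 and Glrb were highest in Mc, Trpv2, Kcnj8, Kcne4 and Kcna1 in DF, and Clcn5, Trpc4ap and Trpm7 lay near or above the line in all 5 populations.

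Each population was set against the mean of the other 4 to ask which channel genes it held above or below its neighbors, with limma over all 22626 probe-sets and Benjamini-Hochberg adjustment, and a gene was called at an adjusted p under 0.05. DF and DP had the most genes called higher, 23 in DF (15.6% of members, 15.2% of all genes) and 22 in DP (15%, against 14.5% of all genes), so neither share stood apart from that of all genes. Mc had 12 (8.16%, against 8.93%), ORS 5 (3.4%, against 9.83%) and Mx 2 (1.36%, against 11.8%). The genes called lower numbered 25 in Mx (17%, against 23.7% of all genes), 17 in ORS (11.6%, against 9.69%), 16 in Mc (10.9%, against 16.8%), 4 in DF (2.72%, against 4.32%) and 3 in DP (2.04%, against 7.84%). Each population is part of the mean that the others were set against, so these counts are not independent of each other. A permutation test between a pair of populations, 2 arrays against 2, cannot reach a p of 0.05, and the adjusted p-values rest on a spread pooled over populations and probe-sets.

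The split of higher and lower calls depended on the scaling. After quantile normalization of the arrays, which moved the median log2 difference of all genes from -0.12 to 0.02 in Mx and from 0.06 to -0.06 in DF, 11 members were higher and 18 lower in Mx (17% and 16.1% of all genes), 15 higher and 8 lower in DF (11.7% and 11.1%), and 16 higher and 5 lower in DP (11.7% each). As shares of members these were 7.48% and 12.2% in Mx, 10.2% and 5.44% in DF, and 10.9% and 3.4% in DP. These counts also moved when an array was left out. The count higher in DF was 13 without DF replicate 1 and 15 without DF replicate 2, and that in DP was 8 without DP replicate 2. The count lower in Mx was 12 without Mx replicate 1, that lower in ORS was 8 and 10 without ORS replicates 1 and 2, and that lower in Mc was 5 and 10 without Mc replicates 1 and 2 and 10 without ORS replicate 2. The small counts moved as well. Those higher in ORS were 2 without ORS replicate 2, those higher in Mx were 4 without Mx replicate 1 or Mc replicate 2, those lower in DF were 1 without either DF array and 2 without either DP array, and those lower in DP were 1 without either DP array and 5 without Mx replicate 1.

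**Figure D2:**
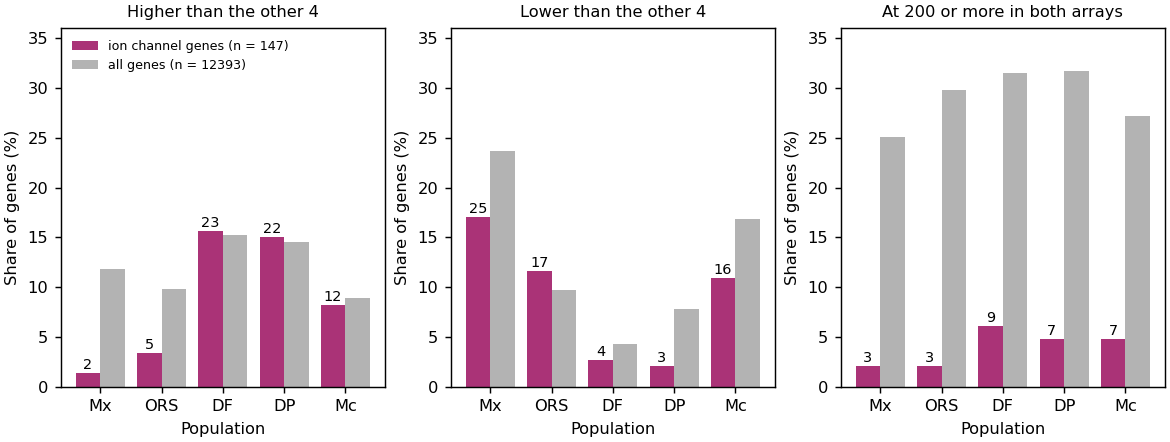
Share of the 147 ion channel genes (colored bars, with the number of genes above each) and of all 12393 genes (grey bars) that were called higher or lower in a population than in the other 4, or that reached 200 in both arrays. The shares called higher in DF and DP lay within 1 percentage point of those of all genes, and the shares at 200 lay below them in all 5 populations.

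A gene was said to mark a population when it was at least 2-fold higher there than in each of the other 4 and every one of these differences had an adjusted p under 0.05. By this rule 4 channel genes marked DF (Trpv2, Kcnj8, Kcne4 and Kcnab1; 1.96% of all genes marked DF), 2 marked DP (Grik5 and Kcnd2; 1.32%), 2 marked Mc (Trpm1 and Glrb; 1.15%), 2 marked ORS (Kcnk1 and Trpv4; 0.855%) and 0 marked Mx (0.484%). At an unadjusted p under 0.05 the count marking Mx was also 0 (0.694% of all genes). As shares of the 147, the counts were 2.72% for DF and 1.36% for each of DP, Mc and ORS, near those of all genes. Of the 10 marking genes, 5 reached 200, namely Trpm1, Glrb, Trpv2, Kcnj8 and Kcne4. Glrb, Trpv2 and Grik5 kept the mark under every alternative in which they were fitted, and the other 7 lost it under at least 1.

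Among the TRP channels, Trpm1 marked Mc and Trpv2 marked DF. Trpm1 encodes melastatin, a cation channel first known from pigment cells and needed for the light response of retinal bipolar cells. Its signal was 2602.2 and 3610.9 in the Mc arrays, 858.2 and 400.7 in DP, 241.5 and 110.9 in DF, 13 and 38 in ORS, and 4.9 and 32.5 in Mx. The Mc arrays lay above all others, the DP arrays above the DF arrays and those above both epithelial populations, whose arrays overlapped. Trpm1 was 19.2-fold higher in Mc than in the mean of the other populations (log2 difference 4.26, SE 0.33, adjusted p from limma 1.51e-04) and 4.87-fold higher than in DP, the nearest (adjusted p 0.00965). The DP and DF levels did not differ past the threshold (adjusted p 0.0604). A second probe-set for Trpm1 showed the same order of Mc, DP and DF, with 1219.4 and 1875 in Mc, 386.9 and 116.5 in DP and 92.6 and 8.5 in DF. The mark over DP was lost without DP replicate 2 (adjusted p 0.0647) and without Mc replicate 2 (adjusted p 0.0668).

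Glrb, the beta subunit of the glycine receptor, which anchors the receptor to its scaffold in the nervous system, was the other channel gene marking Mc. Its signal was 487.9 and 584.6 in Mc, 68.9 and 52.7 in DP, 17.8 and 2.1 in DF, 5.6 and 5.7 in ORS, and 3.1 and 0.4 in Mx. No array outside Mc came near those of Mc, and the DP arrays lay above those of DF, ORS and Mx. Glrb was 8.86-fold higher in Mc than in the mean of the rest (log2 difference 3.15, SE 0.12, adjusted p 1.51e-05) and 5.29-fold higher than in DP (adjusted p 5.81e-05). The alpha subunits among the members, Glra1, Glra3 and Glra4, which bind glycine, read low on every array. No other alpha subunit gene was among the members. Glra1 read 4 and 27.2 in Mc and at most 48 anywhere, Glra3 at most 7.1 and Glra4 at most 39, and in their highest populations they were not called (adjusted p 0.152, 0.506 and 0.427).

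The promoter windows of Trpm1 and Glrb are shown because this pair marked the same population. The transcription factor MITF, a regulator of pigment cell genes, is known to bind the hexamers CATGTG and CACGTG, which were searched on both strands and are in capitals. The reading CACATG is CATGTG on the other strand, CACGTG reads the same on both, and matches may overlap. Each RefSeq window (GRCm38.p6) spans 250 bases before and 50 after an annotated start. Trpm1 lies on chromosome 7 (64153835 to 64269772) and has windows at chr7:64153585-64153884 and chr7:64185209-64185508, both on the plus strand, and Glrb lies on chromosome 3 (80843598 to 80913660) with a window at chr3:80913611-80913910 on the minus strand.
Trpm1, outer start: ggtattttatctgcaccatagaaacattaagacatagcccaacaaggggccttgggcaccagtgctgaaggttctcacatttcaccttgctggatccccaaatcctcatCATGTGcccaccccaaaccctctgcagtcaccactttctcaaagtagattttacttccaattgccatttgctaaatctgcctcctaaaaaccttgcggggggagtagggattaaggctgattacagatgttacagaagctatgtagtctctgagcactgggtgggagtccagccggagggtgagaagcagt
Trpm1, inner start: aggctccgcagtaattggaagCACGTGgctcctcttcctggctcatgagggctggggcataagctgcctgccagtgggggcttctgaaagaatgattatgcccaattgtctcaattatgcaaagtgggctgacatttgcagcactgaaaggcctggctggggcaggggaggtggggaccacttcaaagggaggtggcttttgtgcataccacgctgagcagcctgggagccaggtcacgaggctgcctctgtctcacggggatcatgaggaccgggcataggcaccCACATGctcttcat
Glrb: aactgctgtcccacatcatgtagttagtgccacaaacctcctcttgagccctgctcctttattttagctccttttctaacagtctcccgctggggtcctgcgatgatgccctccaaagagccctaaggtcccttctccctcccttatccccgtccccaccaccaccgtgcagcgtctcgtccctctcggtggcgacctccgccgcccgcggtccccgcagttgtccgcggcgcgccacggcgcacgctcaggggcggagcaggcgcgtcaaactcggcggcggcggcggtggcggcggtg
Counted from the start as 0, the outer Trpm1 window held CATGTG at -141, and the inner window held CACGTG at -229 and CACATG at 36. The Glrb window held neither hexamer, which says only that these letters are not in it. Of all 32851 windows, 14.2% held CATGTG on either strand, 7.15% held CACGTG and 20.4% held at least 1 of them. Windows of Kcne4 and Kcnab1, which marked DF, held CACGTG too. A match is a description of the letters and not of binding.

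**Figure D3:**
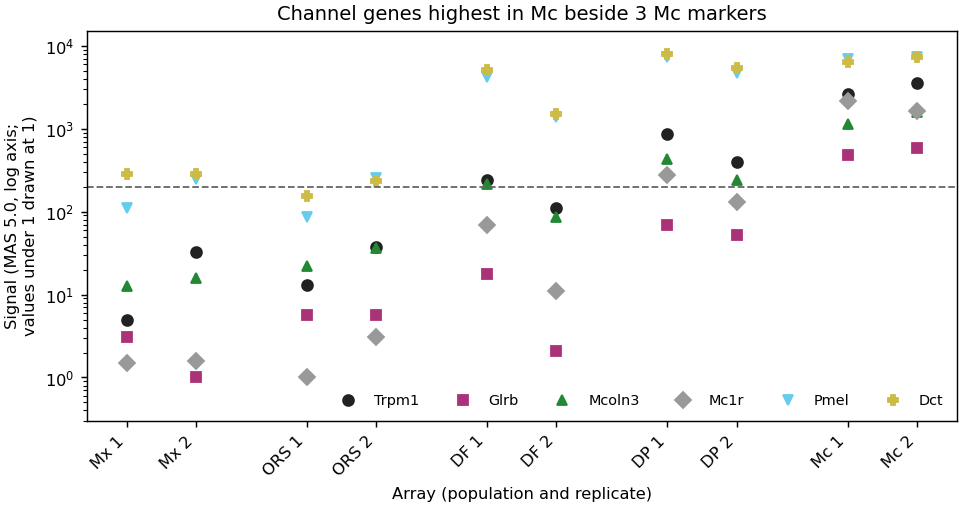
Signal on each array (log axis) of Trpm1 and Glrb, of Mcoln3, another channel gene highest in Mc, and of the Mc markers Mc1r, Pmel and Dct. Trpm1 read 400.7 to 858.2 in DP and 2602.2 to 3610.9 in Mc. Pmel and Dct read about as high in DP as in Mc, while Mc1r read lower in DP than in Mc.

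Markers of Mc were read beside both genes. The summed signal of the 9 markers fell from 34079 to 36391 in Mc to 15823 to 25595 in DP. Among them Pmel and Dct, named as the 2 brightest, did not share the fall of Trpm1 and Glrb from Mc to DP. In DP, Pmel, a protein of the melanosome, read 7437.6 and 4706.1 beside 6950.4 and 7318.1 in Mc, and Dct, an enzyme of melanin synthesis, 8070.2 and 5419.6 beside 6471.3 and 7259.7. Mc1r, the melanocortin receptor, named after its values were seen, read 274.4 and 129.1 in DP, 68.7 and 11.1 in DF, and 2146.9 and 1634.7 in Mc. In both DP and DF, replicate 1 gave the higher signal of Trpm1, of Glrb and of all 3 markers. The part of Mc RNA in the DP and DF signals of Trpm1 and Glrb was not tested. Mast cells carry CD117 as well, and the summed signal of 7 mast cell markers was 469.6 to 621.8 in Mc against at most 367.8 elsewhere, of which Tpsb2, a tryptase, gave 263.1 and 365.3, and Cma1, a chymase, read 54.2 and 56 in Mc and up to 91.1 elsewhere.

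Trpv2, a cation channel of fibroblasts, immune cells and sensory neurons, marked DF. It read 932.8 and 874.1 in DF, 126 and 156.6 in Mc, 77.1 and 83 in DP, 21.3 and 23.5 in ORS, and 19 and 16.3 in Mx. No arrays of different populations overlapped. Trpv2 was 9.08-fold higher in DF than in the mean of the rest (log2 difference 3.18, SE 0.08, adjusted p 3.01e-06) and 5-fold higher than in Mc (adjusted p 1.19e-05). The 5 markers of immune cells summed to 289.5 and 458.5 in DF and to at most 356.6 elsewhere, and none reached 200.

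Trpv4, a channel opened by warmth and cell swelling that keratinocytes carry, went the other way. It read 136.4 and 195.4 in ORS, 26.9 and 70.9 in Mx, and 12 or less on every array of DF, DP and Mc. The ORS arrays lay above the Mx arrays, and these above all others. Trpv4 was 3.3-fold higher in ORS than in the mean of the rest (log2 difference 1.72, SE 0.17, adjusted p 5.68e-04) and 2.22-fold higher than in Mx (adjusted p 0.0188). The mark over Mx was lost without Mx replicate 1 (1.77-fold, adjusted p 0.0574) and without ORS replicate 2 (1.93-fold, adjusted p 0.116), and the fold was 1.92 after quantile normalization.

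On the probe-sets that stand for them, the other TRP genes at 200 were broadly even. Trpm7, a channel joined to a kinase and required for magnesium balance, ran from 181.2 (DF replicate 1) to 409.5 (ORS replicate 1). All populations overlapped at least 1 other. Other Trpm7 probe-sets stayed below 200. One ran from 92.6 to 160.4, was highest in DP, and was higher in the mean of DF and DP than in that of the epithelial populations (log2 difference 0.33, adjusted p 0.0286). Another ran from 57.8 to 154.7 and was highest in ORS. Trpc4ap ran from 242.9 (Mx replicate 1) to 435 (DF replicate 1). Neither was called in its highest population, at adjusted p-values of 0.358 for Trpm7 and 0.162 for Trpc4ap, which does not show that their levels were equal. Without Mx replicate 2, Trpc4ap passed in DF (adjusted p 0.0412). Of the remaining TRP genes, Trpc6, a receptor-operated calcium channel, was called higher in DF at signals of 28.9 and 33.4.

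Among the potassium channel genes, Kcnj8, Kcne4 and Kcnab1 marked DF, Kcnd2 marked DP and Kcnk1 marked ORS. Kcnj8 encodes Kir6.1, the pore of the ATP-sensitive potassium channel of vascular smooth muscle and pericytes. It read 429.7 and 1004.8 in DF, 89.7 and 212.7 in DP, 19.4 and 18.6 in Mc, 14 and 8.7 in Mx, and 5.3 and 10.1 in ORS. The DF arrays lay above the DP arrays and these above the rest, and the higher value of both DF and DP was in replicate 2. Kcnj8 was 8.6-fold higher in DF than in the mean of the rest (log2 difference 3.11, SE 0.30, adjusted p 3.75e-04) and 3.71-fold higher than in DP (adjusted p 0.0222). The mark was lost without DF replicate 2 (2.5-fold over DP, adjusted p 0.0828) and without DP replicate 1 (2.71-fold, adjusted p 0.12). Abcc9, the sulfonylurea receptor subunit that joins this pore, was named after its values were seen and read 140 and 330.4 in DF, 20.7 and 53 in DP and at most 11.4 on the other arrays.

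Markers of smooth muscle and pericytes were read beside Kcnj8. Those named here were highest in DF. From replicate 1 to replicate 2 they rose in DP, as Kcnj8 did, and did not rise in DF, where Kcnj8 did. The summed signal of all 8 markers ran from 25175 to 28866 in the DF arrays. Rgs5, a pericyte gene, read 6184 and 6114.2 in DF, 933.6 and 1982.7 in DP and at most 40.8 elsewhere. Acta2, the smooth muscle actin, read 8747.7 and 8535.7 in DF and 1592.5 and 2576.4 in DP. In ORS it read 1937.9 and 2613.7, where Kcnj8 read 5.3 and 10.1. Of the 8 markers of this list, 7 were called higher in DF and 3 in DP. Their part in the DF and DP signals of the channel genes was not tested.

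Kcne4 and Kcna1 were also highest in DF. Kcne4, an auxiliary subunit that inhibits some voltage-gated potassium channels, read 391.7 and 501.9 in DF, 148.9 and 151.7 in DP and 27 or less on the other 6 arrays. It was 5.94-fold higher in DF than in the mean of the rest (log2 difference 2.57, SE 0.13, adjusted p 1.85e-05) and 2.47-fold higher than in DP (adjusted p 0.00312). Kcna1, the shaker-type channel Kv1.1 of axons, read 396 and 221.6 in DF, 124.3 and 169.1 in DP and 12.2 or less elsewhere. It was 4.33-fold higher in DF (log2 difference 2.12, SE 0.18, adjusted p 1.63e-04) and did not mark it, at 1.78-fold over DP (adjusted p 0.0594). For both genes the DF arrays lay above the DP arrays, and these above all others. Of 5 Schwann cell markers, 2 were called higher in DF, 4 in DP and 2 in Mc. Mbp, a myelin protein, read 2053.9 and 1490.5 in DF against 169.6 and 442.8 in DP and at most 23.8 elsewhere. Erbb3, a receptor of Schwann cells, read high in all populations. It read 482.9 and 488 in DF, 1096.5 and 710.5 in Mc, 544.3 and 694 in Mx, 500.9 and 546.8 in ORS, and 396.9 and 569.2 in DP. The part of these cells in the DF and DP signals was not tested.

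Kcnab1 and Kcnd2 marked a dermal population at lower signals. Kcnab1, a beta subunit of Kv1 channels, read 125 and 323.8 in DF, 33 and 53.7 in DP, 22.4 and 37.6 in Mc, 30.6 and 26.3 in Mx, and 25.7 and 7 in ORS. The DF arrays lay above the rest but differed widely, and the mark (2.76-fold over DP, adjusted p 0.0328) was lost without DF replicate 2 (1.89-fold), without either DP array (adjusted p 0.169 and 0.0923) and without either Mc array (adjusted p 0.0659 and 0.0575). A second Kcnab1 probe-set gave 1.88-fold over DP (adjusted p 0.0948). Kcnd2, the A-type channel Kv4.2, read 117.2 and 133.1 in DP, 22.9 and 38.9 in DF and 15.9 or less on the other arrays. It was 2.75-fold higher in DP than in the mean of the rest (log2 difference 1.46, SE 0.10, adjusted p 8.81e-05). Over DF it was 2.17-fold higher (adjusted p 0.00178), which became 1.97-fold without DF replicate 1 and 1.95-fold with the mean over probe-sets. The mark was also lost at a pseudocount of 1 (adjusted p 0.0959). Other Kcnd2 probe-sets gave 2.04-fold and 1.68-fold over DF.

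Two-pore channels, which carry the resting potassium leak, made up 2 of the 5 genes called higher in ORS. Kcnk1, also called TWIK-1, read 180.8 and 177.6 in ORS, 60.1 and 47.5 in DF, 39.8 and 57.5 in Mx, and 18.3 or less in DP and Mc. The ORS arrays lay above all others, and the DF and Mx arrays overlapped. Kcnk1 was 2.89-fold higher in ORS than in the mean of the rest (log2 difference 1.53, SE 0.10, adjusted p 1.14e-04) and 2.21-fold higher than in DF (adjusted p 8.52e-04), and the fold over Mx was 1.98 after quantile normalization. The mark was also lost with the mean over probe-sets (1.82-fold over DF), and a second probe-set, at 43 and 34.5 in ORS, gave 1.5-fold over DF. Kcnk2, the stretch-activated TREK-1, was called higher in ORS with 79.7 and 184.5, where Mc replicate 2 read 71.6. Kcnk7, a two-pore family member, read 119.5 and 141.9 in Mx, beside 118.8 and 136.3 in ORS (adjusted p 0.057 for Mx against the rest). In DF, Kcnk3 was called higher with 13.7 and 56.1 and Kcnk5 with 63.2 and 59.8, both two-pore channels sensitive to pH.

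Of the other potassium channel genes, Kcnj10, the Kir4.1 channel of glia, read 121 and 68.8 in DF and 37.4 or less elsewhere and was called higher in DF. Kcnj15, Kir4.2, was called higher in ORS with 42.3 and 67. Kcnmb4, an auxiliary subunit of the large calcium-activated channel, read 187.2 and 188.8 in Mc and 181.4 in DP replicate 2, and its call in Mc (1.4-fold, adjusted p 0.0265) was lost without either Mc array (adjusted p 0.14 and 0.153). Kcnn2, a small-conductance calcium-activated channel, was called higher in Mc with 109.7 and 83.2, above the 47.2 and 72.9 of DP. The signals of these genes lay below the bound of 200 in all populations.

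Voltage-gated calcium channels were led by Cacna1g, the T-type pore Cav3.1, which opens near the resting potential. It read 331.1 and 341.1 in DP, 263.5 and 236.6 in DF, 23.7 and 10.2 in ORS, 7.7 and 16.8 in Mx, and 3 and 5.8 in Mc. All 4 arrays of DF and DP lay above 200, and the other 6 at 23.7 or less. Cacna1g was 4.26-fold higher in DP than in the mean of the rest (log2 difference 2.09, SE 0.10, adjusted p 1.53e-05), and its DP and DF levels did not differ past the threshold (1.29-fold, adjusted p 0.141). It was called lower in Mx, ORS and Mc.

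Other genes of this class showed the same grouping at lower signals. Cacna1c, the L-type pore Cav1.2 of heart and smooth muscle, read 107.8 and 142 in DP and 122.2 and 109 in DF against 35.7 or less elsewhere. Cacna1h, a second T-type pore, read 66.7 and 91 in DP and 72.7 and 130.7 in DF against 20.9 or less. Cacna2d1, an auxiliary subunit that carries channels to the surface, read 264.4 and 161 in DP, 119.6 and 156 in DF and 31.8 or less elsewhere, and was 3.04-fold higher in DP than in the mean of the rest (log2 difference 1.61, SE 0.22, adjusted p 0.00233). A second Cacna2d1 probe-set read 9.7 or less on every array and was not called in DP (adjusted p 0.434). On the probe-sets that stand for them, all 3 genes were called higher in both DF and DP, and in each the 4 arrays of DF and DP lay above the other 6. The related subunit Cacna2d3 differed, with 124 and 112.9 in Mx and 94.3 and 99.8 in DP, and was called higher in both. Cacng6, the other gene called higher in Mx, read 26.2 and 24.9 there. Cacnb1, the cytoplasmic beta subunit, ran from 47.5 to 101.3 and was not called in DF, where it was highest (adjusted p 0.221).

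Among the receptors for glutamate, Grik5, a kainate receptor subunit that needs a partner subunit to form a channel, marked DP. It read 157.5 and 153.8 in DP, 34.7 and 24.6 in DF and 10.6 or less on the other 6 arrays, with DP above DF and DF above the rest. Grik5 was 3.31-fold higher in DP than in the mean of the others (log2 difference 1.73, SE 0.08, adjusted p 1.04e-05) and 2.59-fold higher than in DF (adjusted p 2.37e-04). Of possible partners, Grik1 read 21.6 and 23.3 in DP and was called higher in Mc, where the arrays read 84.2 and 23.7. Grina read 585.3 and 604 in Mc, 404.9 and 439.9 in DF, 435.4 and 365.4 in DP, 181 and 246.3 in Mx, and 142.4 and 187.7 in ORS. It was called higher in Mc (1.95-fold, log2 difference 0.97, SE 0.13, adjusted p 0.00138), and over DF, the nearest, the fold was 1.37 (adjusted p 0.0918).

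No GABA-A receptor gene reached 200. Gabrp, the pi subunit of epithelial tissues, read 154.4 and 146 in DF, 115.5 and 103.6 in Mx and 96 or less elsewhere. Its call in DF (1.43-fold, adjusted p 0.0253) was lost without DF replicate 1 (adjusted p 0.169), DF replicate 2 (0.112), DP replicate 1 (0.0515) or ORS replicate 1 (0.0522), and under 3 other settings. A second Gabrp probe-set read 113 and 94.3 in DF and 96.6 and 96.9 in DP, and was not called in DF (adjusted p 0.0687). Gabra2 and Gabra3, alpha subunits, were called higher in DP and DF, at 24.1 and 55 and at 43 and 51.8.

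The CLC family held 2 of the 12 genes at 200, Clcn5 and Clcn4. Clcn5, a chloride-proton exchanger of endosomes, read 944.4 and 839.8 in Mc and between 273.6 and 461.4 on the other 8 arrays. It was 2.15-fold higher in Mc than in the mean of the rest (log2 difference 1.10, SE 0.10, adjusted p 2.64e-04), and 1.9-fold over DF (adjusted p 0.00166), just under the fold for a mark. A second probe-set gave 537.8 and 410.1 in Mc and at most 237.3 elsewhere, and another, at 63.6 or less, was not called (adjusted p 0.0809).

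Clcn7, the lysosomal exchanger, was called higher in Mc as well, with 169.5 and 214.9 beside 181.5 and 146 in DP (1.4-fold, adjusted p 0.0115), and lost the call without Mc replicate 2 (adjusted p 0.124). A second Clcn7 probe-set, at 86 and 94.2 in Mc, was not called there (adjusted p 0.234). Clcn4 had a second probe-set that was highest in DP (322.6 and 308.8, beside 288.2 and 311.3 in DF) and was called there (adjusted p 0.0316). The one that stands for the gene read 443 and 412.4 in DF and 365.8 and 423.2 in DP, with 161.8 to 337.3 elsewhere. It was called higher in both DF and DP. Its call in DF (1.53-fold, adjusted p 0.0196) was lost without DF replicate 1 or 2 (adjusted p 0.15 and 0.0901). The probe-set of Clcn3, an exchanger of synaptic vesicles and endosomes, ran from 57.5 (DP replicate 2) to 270.2 (Mx replicate 2), with the Mx arrays at 85.9 and 270.2, and was not called in Mc (adjusted p 0.266) unless Mx replicate 2 was left out (adjusted p 0.0124). These are the values of the probe-set that stands for the gene. The one behind its 187.5 read 106.1 and 238.1 in Mx beside 188.5 and 187.5 in ORS, and was lower in the mean of DF and DP than in that of the epithelial populations (log2 difference -1.06, adjusted p 0.00439).

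No voltage-gated sodium channel gene reached 200. Scn8a, the Nav1.6 channel of neurons, read 74.5 and 127.5 in Mc, 63.2 and 69.3 in DP, 47.1 and 45.5 in DF and 21.6 or less in Mx and ORS. It was called higher in Mc (1.78-fold, log2 difference 0.83, SE 0.14, adjusted p 0.00414), and over DP the fold was 1.28 (adjusted p 0.236). A second Scn8a probe-set read 9.9 and 11 in Mc and was highest in DP, where it was not called (adjusted p 0.229). Scn3b, an auxiliary subunit, was called higher in DF with 77.1 and 75.5, and Scn7a, a sodium-sensing relative, higher in DP with 23.6 and 43.7. Of the neuronal markers read beside them, Stmn2, a growth cone protein, read 342.5 and 232.8 in DF and 106.9 and 129.3 in DP, Tubb3, a neuronal tubulin, read 218.1 and 112.1 in Mc, and Snap25 and Nefm read at most 10.3 on any array.

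**Figure D4:**
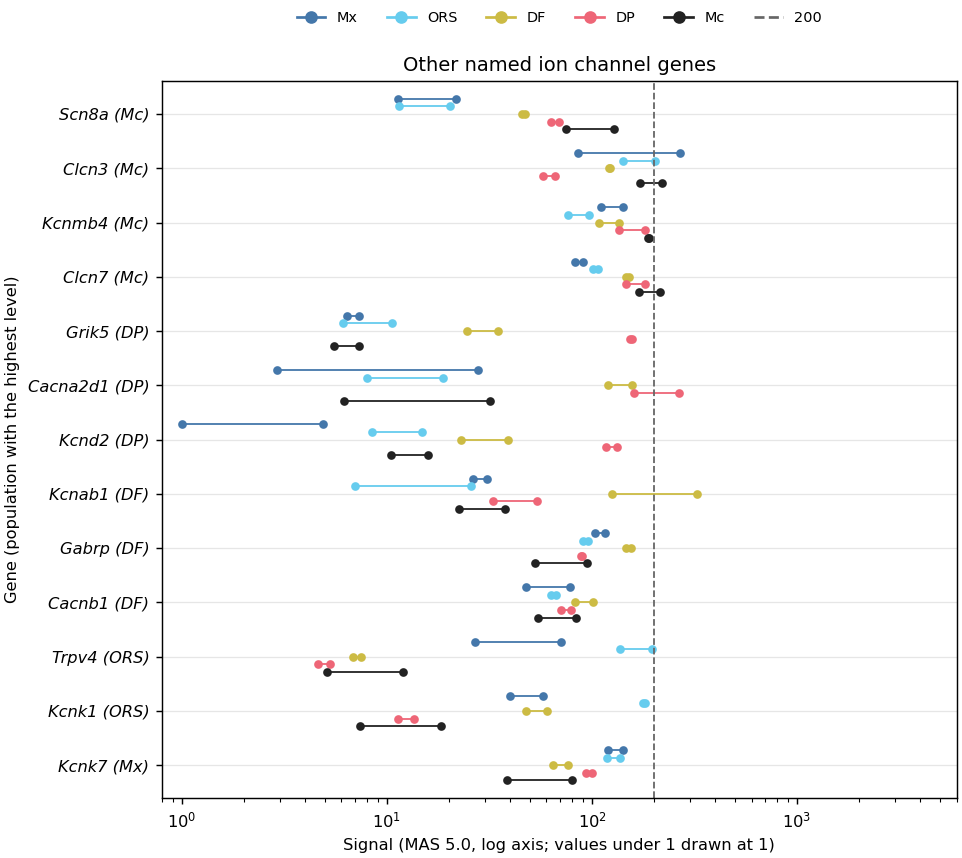
Signal on each array (log axis, 2 linked points for each population) of the 13 other named genes, which marked a population, lay just below 200 (dashed line) or stood for a class with no gene at 200. Grik5 and Kcnd2 stood highest in DP, Kcnk1 and Trpv4 in ORS and Kcnab1 in DF.

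Several genes were higher in DF and DP alike, so the mean of DF and DP was also set against the mean of Mx and ORS, a comparison added after the values were seen that uses the same arrays. Of the 147 genes, 51 were higher in the dermal populations (34.7% of members, against 29.8% of all genes) and 4 were lower (2.72%, against 14.7%). The largest differences were those of Kcnj8 (6.21-fold), Cacna1g (5.29-fold), Trpm1 (5.26-fold), Trpv2 (5.03-fold), Kcne4 (4.88-fold) and Kcna1 (4.37-fold). The 4 lower genes were Trpv4, Kcnk1, Kcnj15 and Kcnk7. By class, 6 of 9 calcium channel pores were higher, 9 of 20 voltage-gated potassium channels, 5 of 12 potassium channel auxiliary subunits, 4 of 13 inward rectifiers, 4 of 9 calcium-activated potassium channels, 4 of 9 sodium channels, 4 of 14 glutamate receptor genes, 5 of 15 TRP genes, 3 of 7 CLC genes, 3 of 13 GABA-A receptor genes, 2 of 14 calcium channel auxiliary subunits, 1 of 4 glycine receptor genes and 1 of 8 two-pore channels. All 4 lower genes were inward rectifier, two-pore or TRP channels.

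This split depended on the scaling of the arrays. The median log2 difference between dermal and epithelial populations was 0.22 for the members and 0.13 for all genes, and after quantile normalization 0.04 and -0.02. After quantile normalization 22 members were higher (15%, against 19.2% of all genes) and 13 lower (8.84%, against 21.3%). The share of members higher, which lay above that of all genes in the main fit, then lay below it. All 22 were among the 51, and all 4 lower genes were among the 13. The 22 held Kcnj8, Kcne4, Kcna1, Kcnd2, Cacna1g, Cacna1c, Cacna1h, Cacna2d1, Grik5, Trpm1, Trpv2 and Glrb. Clcn5 and Clcn7 were among those no longer called.

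**Figure D5:**
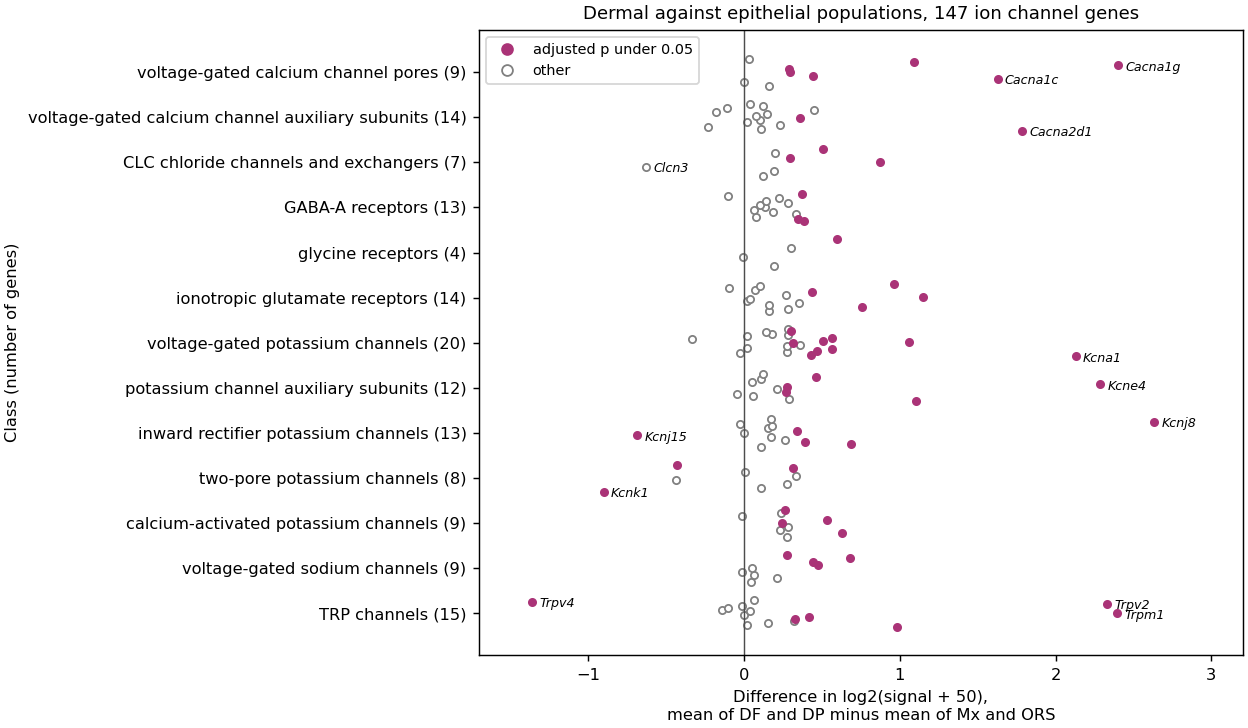
Difference in log2(signal + 50) between the mean of DF and DP and the mean of Mx and ORS for each of the 147 ion channel genes, by class, with filled points for an adjusted p under 0.05. Kcnj8, Trpm1, Cacna1g, Trpv2, Kcne4 and Kcna1 lay above 2, and Trpv4 below -1.

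Channel and gradient genes outside these families were read from a list of 129, of which 95 were on the array and were not members. Of these, 34 reached 200 in a population. In DF 24 were called higher (25.3% of the 95, against 15.2% of all genes) and 2 lower (2.11%, against 4.32%), and in DP 15 (15.8%, against 14.5%) and 5 (5.26%, against 7.84%). In Mc 11 were higher (11.6%, against 8.93%) and 18 lower (18.9%, against 16.8%), in Mx 6 (6.32%, against 11.8%) and 30 (31.6%, against 23.7%), and in ORS 8 (8.42%, against 9.83%) and 12 (12.6%, against 9.69%). The list, chosen with earlier results known, holds channels of other families, pumps and anchoring proteins. Mcoln3, a TRP-related channel of endosomes that is known in pigment cells, read 1134.1 and 1603.5 in Mc, 435.7 and 240.4 in DP, 213.7 and 85.6 in DF and 36.5 or less elsewhere, the same order of populations as Trpm1, and was 10.2-fold higher in Mc (log2 difference 3.34, SE 0.28, adjusted p 1.93e-04).

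The other named genes of that list divided among the populations. Fxyd1, a regulator of the sodium pump, read 482.6 and 593.8 in DF and 240.4 and 410.9 in DP against 10.6 or less elsewhere, and Fxyd5 read 484.6 and 327.3 in DF and 164.8 or less elsewhere. Ano1, a calcium-activated chloride channel, read 217.3 and 289.1 in DF and 203.8 and 73.4 in Mc. Nlgn2, which organizes inhibitory synapses, read 714.5 and 593.3 in DP and 317.6 or less elsewhere. Atp1b3, a beta subunit of the sodium pump, read 3304.7 and 3678.4 in ORS and 1962.9 or less elsewhere. All 5 were called in their highest population (adjusted p from 3.84e-05 to 0.0014).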

How the data were processed

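RNA of the sorted cells was amplified in 1 round and hybridized to Affymetrix MOE430A arrays by the authors. The deposited values are intensities on a linear scale, MAS 5.0 signals of 22690 probe-sets, which the authors scaled for each array. Present calls and raw images were not used here. The 64 control probe-sets were left out, and the other 22626 were fitted with no filter on signal, since most channel genes lie below 200 and a filter passed through the highest population fixes a direction. Of these, 20380 had 1 gene in the platform annotation, 691 several and 1555 none, and the latter groups named no gene. Where a gene had several probe-sets, the one with the highest mean over all arrays stood for it. All 147 members matched a RefSeq symbol.

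Log2(signal + 50) was fitted with limma 3.58.1 (R 4.3.3), as population means without a block. Benjamini-Hochberg adjustment ran over all probe-sets within each comparison. The fit left 5 residual degrees of freedom (2.56 prior) and a median residual SD of 0.168. An array has no depth of reads, so precision is limited by the number of arrays. The methods call the replicates independent, and p-values measure only the spread between these arrays. Named were genes at 200 or more in both arrays of a population, genes marking a population, the 5 just below 200, the brightest gene of each class with none at 200, and up to 6 other channel genes and 2 of each marker list. The members, lists and rules were chosen with earlier results of these data known. Tables were read and plots drawn with pandas 2.3.3, numpy 2.4.6 and matplotlib 3.10.9 in Python 3.11.15. The fit was tested on simulated data. Alternatives were other pseudocounts, filters, scalings, variance models, blocks and probe-set rules, and each array left out in turn. Differences within chip lots and the dermal against epithelial comparison were added after the data were seen.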

Additional observations from a re-analysis of the deposited data

How the results depend on the processing

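No direction of a named gene reversed under any alternative. The genes and their highest populations were picked from these same arrays, so neither this nor the next counts are an independent check. Of the 25 named genes, 20 were called, and 16 of these kept the call under all alternatives in which they were fitted, while Clcn4, Kcnmb4, Clcn7 and Gabrp lost it under at least 1. A filter at 200 left 12 members among the 5253 genes then tested, whose shares are in brackets. Of the 12, 6 were higher in DP (21.4%), 6 in DF (21.1%), 4 in Mc (16.1%), 0 in ORS (17.9%) and 0 in Mx (22.2%). Lower were 1 in DP (16.5%), 1 in DF (8.99%), 4 in Mc (29.4%), 9 in ORS (16.4%) and 10 in Mx (34.8%). There were 0 marking ORS, 0 marking DP, and 9 higher and 0 lower in the dermal populations (34.4% and 26.3%). Fewer genes were tested, and the pooled spread and the adjustment were those of the filtered set. The members fitted under this filter, and under the one at 100, passed through the population where they are high. The filter at 100 left 26 members that reached it on the probe-set standing for the gene (Cacna1d reached it on another), among 7383 genes tested. It gave 15 lower in Mx (33.9% of the genes tested). Higher were 2 in ORS (15.6%), 10 in DF (20.7%), 11 in DP (20.8%), 6 in Mc (13.9%) and 15 in the dermal populations (35%). Quantile normalization gave 11 higher in Mx, 15 higher and 8 lower in DF, 5 lower in DP, 0 marking ORS, and 22 higher and 13 lower in the dermal populations. A pseudocount of 1 left 1 gene marking ORS and 1 marking Mc, a pseudocount of 16 gave 7 marking DF, and the mean over probe-sets left 1 marking ORS and 1 marking DP. Rescaling over all probe-sets gave 4 higher in Mx, and an intensity trend 5 lower in DP. At bounds of 100 and 400, 27 and 7 members counted as reached. The cause of these changes was not tested.

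Leaving out 1 array gave 2 to 4 genes higher in Mx, 12 to 27 lower in Mx, 2 to 6 higher and 8 to 19 lower in ORS, 13 to 24 higher and 1 to 5 lower in DF, 8 to 23 higher and 1 to 5 lower in DP, and 5 to 16 lower in Mc, with 1 to 3 marking ORS, 2 to 5 marking DF, 1 to 2 marking DP and 1 to 2 marking Mc. A population left with 1 array is assumed to vary like the others, and the fit has fewer residual degrees of freedom.

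The replicate number as a block gave 4 higher in Mx in place of 2 and moved no other count by over 1.5 times. Same-numbered arrays deviated together with correlations from -0.0471 to 0.271 over 10 pairs of populations, 5 of them over 0.1. They were not treated as pairs in the main fit, and these correlations do not show that a shared preparation is absent. The chip lot as a block also gave 4 higher in Mx. Both Mx arrays came from lot A. In ORS, DF, DP and Mc, replicate 1 came from lot A and replicate 2 from lot B. There, lot and replicate number cannot be told apart, and these blocks are not separate checks. Within lots A and B, the log2 difference was 2.53 and 1.53 for Kcna1, 1.18 and 2.22 for Kcnab1, and 2.03 and 1.01 for Cacna2d1. No detection call was used here, so a low signal was not read as absence of a transcript.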

Other observations

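Of 5 red cell markers, 3 were on the array, and Alas2, the heme synthesis enzyme of the erythroid line, read 3461.6 and 4266.2 in DF and at most 7.8 elsewhere. Lyve1, of lymphatic endothelium, read 1791.5 and 1278.8 in DF and at most 37.4 elsewhere, and Kdr, an endothelial receptor, 1007.1 and 658.4 against at most 114.8. The depletion of DF named CD34, CD45 and CD117. Of 9 skeletal muscle markers, 0 reached 200, and 1 was called higher in each of DF and DP. Myh3, an embryonic myosin, read 123.2 and 99.2 in DP and at most 22.9 elsewhere, and Actc1, a muscle actin, 79.5 and 103.7 in DF and 45.9 and 52.4 in DP.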
